A study of Mus musculus with 36 samples.

Results

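The step from mouse embryonic stem cells (ESC) to neural precursor cells (NPC) under retinoic acid was measured by mRNA sequencing in wild-type (WT) E14 cells, an established mouse ESC line. Its members are 6 of the 36 libraries of the series, chosen by their labels alone: 3 of WT ESC and 3 of WT NPC. The ESC were grown with leukemia inhibitory factor (LIF), a cytokine that holds mouse ESC undifferentiated, and serum replacement. Differentiation used retinoic acid, and the NPC were harvested on day 4. Both groups are labelled as treated with dTAG-13, a compound that directs tagged proteins to degradation. In the differentiation it was added at 2 µM from day 1, while no duration is stated for ESC. The labels give the genotype as wild type, so both groups share the compound without a named target, and retinoic acid is named for NPC alone. No dose of retinoic acid is stated. The WT cells are 1 line, and nothing in the labels states that the replicates were separate cultures. The p-values use a spread estimated over 18 libraries of 6 groups, of which 12 are from other lines. They measure the spread between libraries within groups, which may be technical.

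Total counts were 19430860 to 36299673 per library. Across genes, the Pearson correlation of log2(CPM + 1) was 0.996 to 0.998 within a group and 0.89 to 0.892 between ESC and NPC libraries. CPM (counts scaled to a common library total) were computed with TMM factors. They do not correct for gene length, so levels are compared for 1 gene between stages and not between genes. The change of a gene is the log2 fold change of NPC over ESC. Its standard error (SE) is approximate, back-calculated as the size of the change over the square root of the F statistic of the test below. A gene is said to have risen or fallen where the edgeR quasi-likelihood F test gave a Benjamini-Hochberg adjusted p under 0.05. Of 20511 genes tested, 79.5% were called so (39.1% higher and 40.4% lower in NPC), the libraries of the groups did not overlap in 79.7%, and the median change over all genes tested was −0.04. Because so many genes were called, lists are described by members that were called and changed at least 2-fold. A count of list members that rose or fell means this, also where the limit is not repeated. Among all genes tested, 22.5% rose at least 2-fold and 21.2% fell at least 2-fold (43.7% together), and every list count below is to be read beside those shares (the bar plot of list shares marks both). In cultures measured in bulk, fewer cells of a type and less RNA per cell cannot be told apart.

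**Figure D1:**
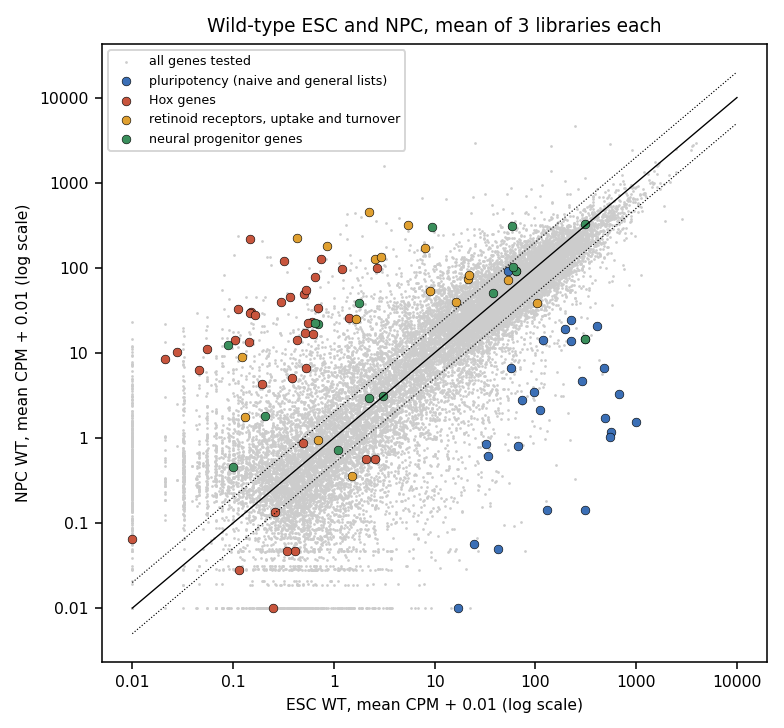
Mean CPM + 0.01 of each gene tested in the 3 ESC WT libraries (x axis, log scale) and the 3 NPC WT libraries (y axis, log scale). The solid line marks equal values and the dotted lines a 2-fold difference. Members of 4 gene groups are coloured. All but 1 of the pluripotency genes lie below the dotted lines, and Hox genes lie mostly above them, while neural progenitor genes lie on both sides.

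Retinoic acid enters the nucleus and binds retinoic acid receptors (RAR), which sit on DNA as dimers with retinoid X receptors (RXR). The dimers recognise direct repeats of a short hexamer, and the repeat with a 5-base spacer is known as DR5. Binding of the ligand turns nearby genes on, among them genes that bind, store and destroy retinoic acid itself. In the embryo this signal is known for setting the anterior and posterior position of the hindbrain and spinal cord through Hox genes.

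The promoters of Rarb and Cyp26a1 are shown because both genes are textbook targets of the receptors, and both hold a DR5 repeat directly before their start site. The sequences are the 250 bases before the start on the gene's own strand, from RefSeq on build GRCm38.p6, with the DR5 match in capitals.
Rarb, chr14:16575477-16575726, minus strand: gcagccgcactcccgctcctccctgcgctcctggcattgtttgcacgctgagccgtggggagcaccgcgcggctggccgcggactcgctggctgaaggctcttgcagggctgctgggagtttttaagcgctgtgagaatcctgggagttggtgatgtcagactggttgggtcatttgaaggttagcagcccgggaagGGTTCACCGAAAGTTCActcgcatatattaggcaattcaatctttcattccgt
Cyp26a1, chr19:37697558-37697807, plus strand: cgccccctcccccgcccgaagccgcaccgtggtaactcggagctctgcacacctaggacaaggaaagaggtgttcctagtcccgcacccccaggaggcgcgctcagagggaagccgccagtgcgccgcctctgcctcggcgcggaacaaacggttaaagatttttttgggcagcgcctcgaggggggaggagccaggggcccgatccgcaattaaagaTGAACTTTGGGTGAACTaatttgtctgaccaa
The match begins 53 bases before the start of Rarb and 32 bases before that of Cyp26a1. DR5 was searched on both strands in the 300-base windows around the starts of 27025 gene symbols, of which 31 (0.115%) held a match. Of the 12978 symbols among them that were genes tested here, 9 (0.0693%) held a match. Of the 2954 genes with such a window that rose at least 2-fold, 3 held a match: Rarb, Cyp26a1 and Tnfsf13b, a cytokine gene that rose by 5.30 (SE 0.47) on the log2 scale. Of the 2471 that fell at least 2-fold, 2 held a match. A match is a description of the letters in this window and no evidence of binding.

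Both genes with these promoters rose in every NPC library. Rarb, which encodes the beta receptor, had 0.745, 0.232 and 0.272 CPM in the 3 ESC libraries and 227, 230.2 and 221 CPM in the NPC libraries. Its change was 9.24 (SE 0.09), and the groups did not overlap. Cyp26a1 encodes a cytochrome P450 that destroys retinoic acid. It had 2.93, 2.82 and 3.06 CPM in ESC and 135, 139 and 131 CPM in NPC, a change of 5.52 (SE 0.07). The edgeR quasi-likelihood test gave Cyp26a1 a Benjamini-Hochberg adjusted p of 1.2e-37 (n = 3 per group).

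The 6 receptor genes moved in different directions. Besides Rarb, Rxra rose from 21.6 to 74.6 CPM (1.78, SE 0.06). Rarg, which encodes the gamma receptor, fell from 102, 105 and 105 CPM in the ESC libraries to 37.03, 39.2 and 38.3 CPM, a change of −1.44 (SE 0.05). Rxrg fell from 1.60, 1.26 and 1.63 CPM to 0.317, 0.453 and 0.279 CPM. Rara and Rxrb rose by less than 2-fold, with 0.40 (SE 0.05) and 0.51 (SE 0.04). The receptor list as a whole, with 2 members up and 2 down at least 2-fold, was therefore mixed, and Rarb had the widest gap between the groups.

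Of the 13 genes for retinoid uptake, binding and turnover, 12 rose at least 2-fold and none fell, with a median change of 4.42. Stra6, the cell surface receptor for retinol-binding protein, had 0.639, 1.29 and 0.612 CPM in ESC and 175, 188 and 174 CPM in NPC. The intracellular binding protein genes Crabp1 and Crabp2 rose by 1.32 (SE 0.09) and 1.93 (SE 0.06), and both had non-overlapping groups. The enzymes that make retinoic acid rose too. Aldh1a2, the main retinaldehyde dehydrogenase of the early embryo, went from 2.34, 2.85 and 2.52 CPM to 127, 123 and 126 CPM. Rdh10, which oxidises retinol, rose from 9.05 to 53.9 CPM. Aldh1a3 was low in both groups and was not called, at 0.426, 0.995 and 0.646 CPM in ESC and 1.01, 1.17 and 0.642 CPM in NPC, with overlapping libraries. On the side of removal, Dhrs3, which reduces retinaldehyde back to retinol, rose from 5.39 ± 0.369 to 317 ± 3.55 CPM (SD, n = 3). Cyp26b1 rose from 2.61, 2.36 and 1.73 CPM to 437, 454 and 448 CPM (7.67, SE 0.07), a larger log2 change than that of Cyp26a1, while Cyp26c1 reached 1.77, 1.78 and 1.70 CPM. Genes of synthesis, binding and removal thus rose at the same time.

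**Figure D2:**
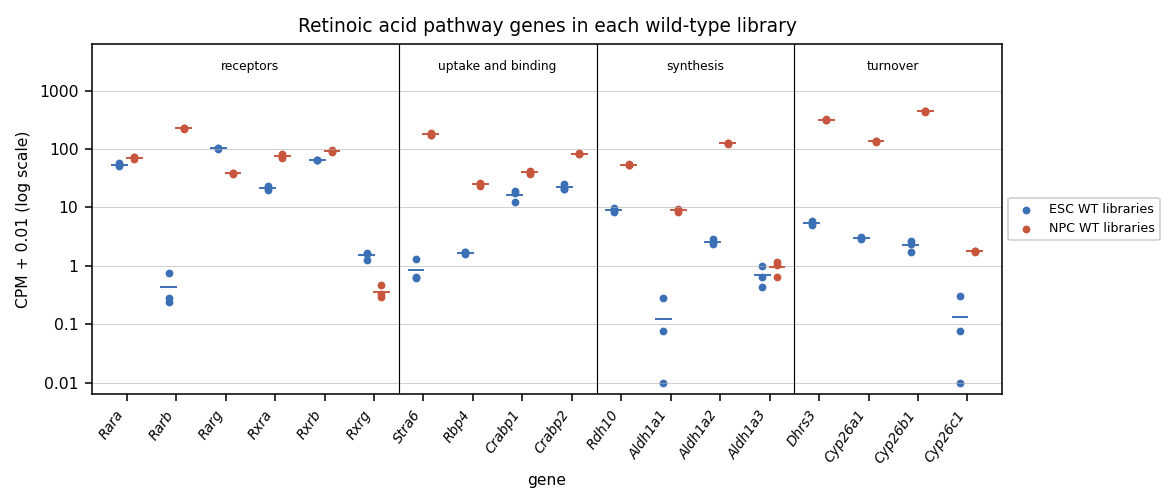
CPM + 0.01 (log scale) of 18 retinoic acid receptor and retinoid metabolism genes in each of the 3 ESC WT and 3 NPC WT libraries. Points are libraries and short lines group means. Rarb, Stra6 and Cyp26b1 show the widest gaps between the groups, Rarg and Rxrg are lower in NPC, and Aldh1a3 overlaps.

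Pluripotency genes fell almost without exception. Mouse ESC hold a network of transcription factors around Pou5f1 (OCT4), Nanog and Sox2, with naive factors such as Esrrb, Klf4 and Tfcp2l1 that LIF and WNT signals sustain. Of 14 general pluripotency genes, 14 fell at least 2-fold, with a median change of −5.49. Pou5f1 had 612, 486 and 568 CPM in the ESC libraries and 0.855, 1.28 and 0.894 CPM in the NPC libraries. Reads of Pou5f1 and Nanog can be shared with processed pseudogenes, which adds uncertainty to the low values in NPC. Tdgf1, which encodes the nodal co-receptor Cripto, fell from 1086, 927 and 979 CPM to 1.42, 1.33 and 1.79 CPM. Fgf4, the growth factor that ESC secrete, fell from 312, 309.9 and 312 CPM to 0.127, 0.160 and 0.112 CPM, a change of −11.15 (SE 0.09). A count of 3 in a library, the limit that a count of 0 allows, is 0.0799 to 0.16 CPM here. That limit holds for counting error only and for independent counts. Sox2, which neural progenitors are also known to express, fell less, from 319, 292 and 322 CPM to 14.5, 13.95 and 14.7 CPM (−4.43, SE 0.06). Sall4, Trim71 and L1td1 had the smallest falls along with Tdh, at 18.95 ± 0.708, 24.3 ± 0.721 and 20.7 ± 0.988 CPM, against 196 ± 13.4, 226 ± 29.96 and 409 ± 4.14 CPM in ESC (SD, n = 3).

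Among 12 naive factors, 11 fell at least 2-fold. Nanog went from 515, 469 and 476 CPM to 1.96, 1.30 and 1.87 CPM and Esrrb from 554, 553 and 565 CPM to 1.08, 1.17 and 1.28 CPM. Dppa3, a naive and germ cell marker, had 1312 counts in ESC and none in NPC, and was at least 586-fold lower. The smallest falls in this list were those of Klf4 (−3.07, SE 0.06) and Klf5 (−3.12, SE 0.09), which stayed at 14.03 ± 0.798 and 6.64 ± 0.369 CPM. Tbx3 was the exception and rose from 50.3, 55.9 and 53.8 CPM to 91.1, 90.5 and 91.1 CPM (0.76, SE 0.04). Tbx3 encodes a T-box factor that is also known from mesoderm and endoderm.

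The formative and primed genes, which mark the state between naive cells and lineage entry, were mostly low in NPC on this day. Of 10, 7 fell at least 2-fold. Otx2, a factor of primed cells and of the forebrain and midbrain, fell from 63.6, 57.99 and 61.5 CPM to 0.190, 0.0533 and 0 CPM. Dnmt3b, a DNA methyltransferase of primed cells, fell from 380.2 ± 7.88 to 20.8 ± 1.14 CPM. Fgf5 rose by 0.30 (SE 0.11), with overlapping groups at 7.72, 6.57 and 6.19 CPM in ESC and 7.56, 9.16 and 8.07 CPM in NPC. The call of Fgf5 was lost in 3 of the 16 alternatives, at 0.21 to 0.23. Of 11 members of the LIF and STAT3 pathway, 3 fell at least 2-fold, a share not far from the 21.2% of all genes tested. They were the STAT3 response genes Socs3 (−1.63, SE 0.04), Pim1 (from 105 to 37.3 CPM) and Pim3 (−1.88, SE 0.05). The list members Junb and Cish did not fall at least 2-fold. The receptor genes Lifr and Il6st changed by −0.76 (SE 0.05) and −0.34 (SE 0.03), and Stat3 by −0.81 (SE 0.04). Jak2, a kinase of this pathway, rose from 20.3 to 75.3 CPM. With offsets for GC content and gene length, 6 members of the LIF list fell at least 2-fold instead of 3.

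Germline genes, several of which ESC are known to transcribe, also fell. Of 14 members 8 fell at least 2-fold, Hormad1 most (−6.15, SE 0.16). Stra8, a gene that retinoic acid induces in germ cells at the start of meiosis and that is named for its response to retinoic acid, rose from 4.21, 3.75 and 4.69 CPM to 34.4, 34.6 and 34.2 CPM (3.03, SE 0.10). It was the only member of this list to rise at least 2-fold.

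**Figure D3:**
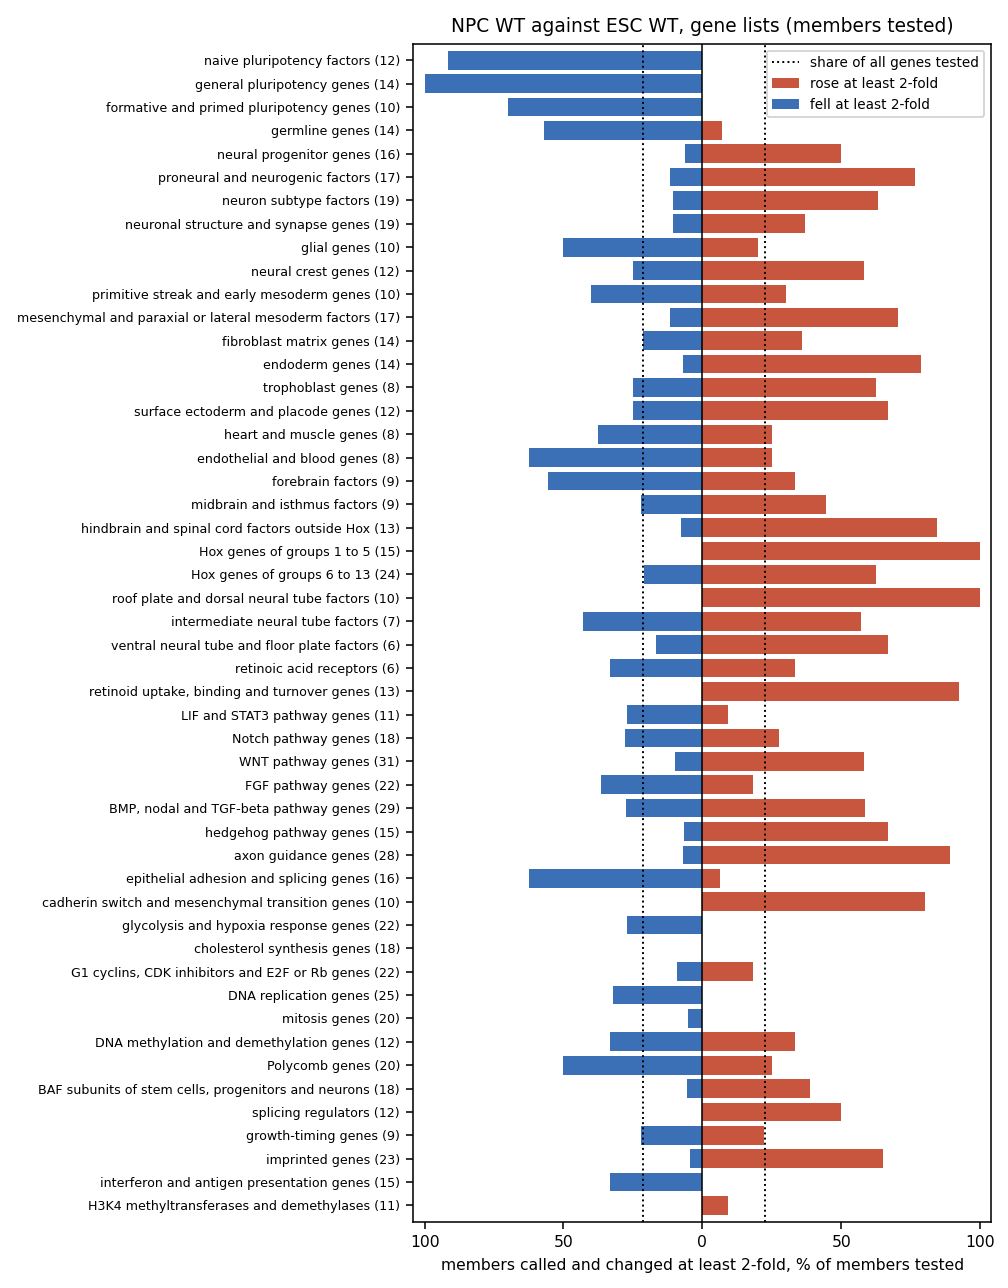
Share of the members tested that were called and rose (right) or fell (left) at least 2-fold in NPC WT against ESC WT, for each of the 50 gene lists, with the number of members tested in brackets. Dotted lines mark the 22.5% of all genes tested that rose and the 21.2% that fell. The pluripotency lists reach furthest to the left, and the Hox genes of groups 1 to 5, the dorsal neural tube and the retinoid turnover lists furthest to the right.

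The Hox genes of groups 1 to 9 described here all rose. The 39 mouse Hox genes lie in 4 clusters, and their paralog groups 1 to 13 are known to be used from the hindbrain to the tail in that order. The 26 genes of groups 1 to 9 described here rose at least 2-fold. Of the 12 genes of groups 10 to 13, 3 rose and 5 fell at least 2-fold. In ESC each of these genes had a mean of 2.69 CPM or less. In NPC these genes of groups 1 to 9 had means of 4.34 to 217 CPM, and those of groups 10 to 13 had means of 16.9 CPM or less.

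In the HoxA cluster, Hoxa5 went from 0.319, 0.464 and 0.136 CPM to 121, 119 and 122 CPM, and Hoxa9 from 0.426, 0.796 and 0.816 CPM to 31.6, 32.8 and 36.6 CPM. The rise ended after Hoxa10, which reached 17.2, 16.6 and 16.9 CPM. Hoxa11 fell from 0.319, 0.398 and 0.476 CPM to 0, 0 and 0.112 CPM, and Hoxa13 changed by 0.81 (SE 0.35) at 0.791, 0.959 and 0.866 CPM in NPC. The call of Hoxa13 was lost in 6 of the 16 alternatives. In the HoxB cluster, Hoxb1, which marks rhombomere 4 of the hindbrain, had 2 counts in all ESC libraries and 661 in NPC, a ratio of 247 (95% interval 68.03 to 2042). Hoxb9 rose from 2.45, 3.18 and 2.45 CPM to 97.1, 97.5 and 102 CPM, and Hoxb13, which lies far from the rest of its cluster, rose from 0.426, 0.730 and 0.680 CPM to 16.4, 17.4 and 16.6 CPM. Hoxb13 was the only member of group 13 to rise at least 2-fold.

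The HoxC cluster held the Hox gene with the largest change. Hoxc5 had 0.213, 0.0663 and 0.136 CPM in ESC and 216, 217 and 218 CPM in NPC, a change of 10.69 (SE 0.10). Hoxc4, Hoxc6 and Hoxc8 rose by 7.49 (SE 0.09), 6.83 (SE 0.12) and 6.35 (SE 0.10). Hoxc9 rose to 27.3, 26.2 and 29.7 CPM and Hoxc10 to 4.62, 4.63 and 5.95 CPM. Hoxc11 had 6 counts in NPC and was not called (called in 3 of the 14 alternatives that tested it). Hoxc12 had 19 counts in ESC and none in NPC, and Hoxc13 fell from 2.54 to 0.554 CPM. The HoxD cluster stopped earlier. Hoxd8 reached 13.1, 14.6 and 15.3 CPM and Hoxd9 4.75, 4.07 and 4.19 CPM. Hoxd10, the next gene, fell from 0.319, 0.133 and 0.544 CPM to 0, 0.0533 and 0.0559 CPM, and Hoxd13 fell from 2.07 to 0.553 CPM. Hoxd3 and Hoxd4 had 1 count each in ESC and 881 and 1086 in NPC, which gives ratios of 658 (95% interval 118 to 26007) and 811 (95% interval 145 to 32052). The edge of the rise thus lay after group 10 in HoxA and HoxC and after group 9 in HoxD, while HoxB has no gene of groups 10 to 12. Antisense and readthrough transcripts run through these clusters. The library kit marks strand, but the counting was not stated to use it, so reads of overlapping transcripts cannot be assigned with certainty.

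**Figure D4:**
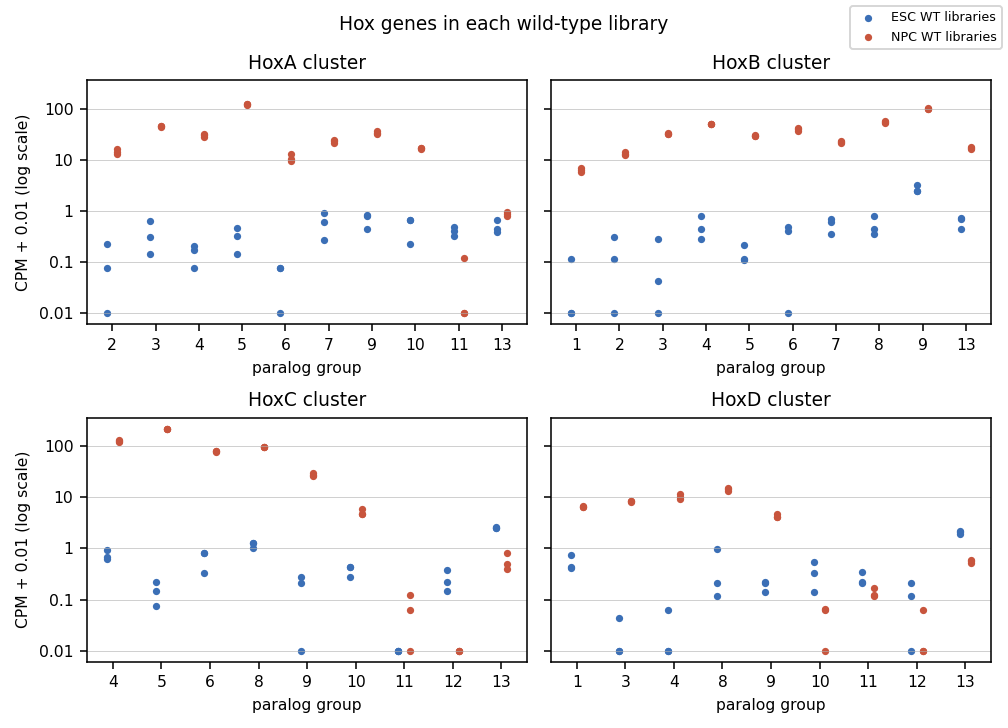
CPM + 0.01 (log scale) of 38 Hox genes in each ESC WT and NPC WT library, by cluster and paralog group. Points are libraries. NPC libraries lie above ESC libraries in all genes shown of groups 1 to 9, and in Hoxa10 and Hoxc10. From group 11 on they lie wholly above the ESC libraries only in Hoxa13 and Hoxb13.

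Most position genes of the hindbrain and spinal cord outside the Hox clusters rose. Of 13 hindbrain and spinal cord factors tested, 11 rose at least 2-fold. Meis1 and Meis2, which encode Hox cofactors, rose from 1.17, 1.43 and 1.39 CPM to 222, 214 and 220.1 CPM and from 2.02, 2.32 and 1.19 CPM to 397, 384 and 390.5 CPM. Egr2, which marks rhombomeres 3 and 5, rose from 0.106, 0.133 and 0.204 CPM to 1.04, 1.62 and 1.45 CPM. Nr2f1 and Nr2f2, orphan receptor genes known to respond to retinoic acid, rose by 9.44 (SE 0.12) and 7.82 (SE 0.09); both were added to the text after their values had been seen. Of the Cdx genes, which are known to set trunk Hox levels, Cdx1 fell from 1.81 to 0.349 CPM, Cdx2 rose to 0.760, 0.985 and 0.531 CPM, and Cdx4 had 6 counts in ESC and none in NPC.

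Forebrain factors were low in NPC in most cases. Of 9 tested, 5 fell and 3 rose at least 2-fold, and 3 fell in the fit of the WT libraries alone. Rax fell to 0, 0 and 0.112 CPM, and Six3 had no count in any of the 6 libraries. The members that rose were Emx2 (6.33, SE 0.15), Lhx2 (3.28, SE 0.18) and Six6, the last at 0.443, 0.266 and 0.335 CPM. Six6 lost its call in 4 of the 15 alternatives that tested it, among them without ESC WT replicate 2, at 1.42. Emx2 had 1.17, 0.697 and 0.748 CPM in ESC and 69.3, 66.9 and 65.9 CPM in NPC, and is also known from the urogenital system. Of 9 midbrain and isthmus factors 4 rose and 2 fell. Wnt1 had no count in ESC and 793 in NPC and was at least 197-fold higher, and Pax2 rose by 6.20 (SE 0.31). En1 was not called, En2 changed by −1.14 (SE 0.19), and Fgf8, the isthmus organiser signal, fell by 6.05 (SE 0.50).

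The labelled cell type was then checked against neural progenitor genes, and the outcome was mixed. Of 16 genes, 8 rose at least 2-fold, 1 fell, and the other 7 changed less. Pax6, a factor of radial progenitors and of the eye, rose from 1.60, 2.42 and 1.22 CPM to 38.1, 38.5 and 40.2 CPM. Sox9 rose from 0.639, 0.829 and 0.612 CPM to 21.9, 22.8 and 20.4 CPM, and Zic1 from 0.106, 0.133 and 0 CPM to 11.6, 12.5 and 12.5 CPM. Ptn, a growth factor of progenitors, rose from 9.37 ± 1.59 to 302 ± 3.49 CPM. In contrast, Sox1, an early marker of the neural plate, had 2.56, 3.12 and 3.47 CPM in ESC and 3.26, 2.82 and 3.21 CPM in NPC, a change of −0.003 (SE 0.15) that was not called. Once GC content and length were offset, Sox1 was called lower, at −0.37. Sox3 rose by 0.43 (SE 0.17) at 2.79, 2.98 and 3.13 CPM in NPC, and Sox21 fell by 0.58 (SE 0.26). The calls of Sox3 and Sox21 were lost in 5 and 8 of the 16 alternatives, among them without ESC WT replicate 2, at 0.40 and −0.62, and once GC content and length were offset Sox3 changed by −0.20. Nes, which encodes the intermediate filament nestin, rose by 0.52 (SE 0.05), from 60.3, 67.2 and 63.2 CPM to 90.6, 92.4 and 90.5 CPM. With those offsets the change of Nes was 0.02 and no longer called. Vim was called at 0.08 (SE 0.03), a call lost in 6 of the 16 alternatives. Fabp7 and Hes5, both progenitor markers, rose at least 2-fold but stayed at 1.80 ± 0.174 and 0.451 ± 0.123 CPM (SD, n = 3). The libraries labelled NPC therefore had several progenitor factors well above ESC, while the SOXB1 genes Sox1, Sox2 and Sox3 were at 3.10 ± 0.240, 14.4 ± 0.383 and 2.97 ± 0.172 CPM. The name NPC is used below as the label.

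Along the dorsoventral axis of the neural tube, all dorsal genes tested rose. Of 10 roof plate and dorsal factors tested, 10 rose at least 2-fold, with a median change of 4.56 (4.56 with Wnt1 at its bound). Msx1 and Msx2, which BMP signals induce, rose from 0.639, 0.597 and 0.340 CPM to 36.9, 37.6 and 36.6 CPM and from 1.12 to 28.2 CPM. Pax3, which marks the dorsal tube and neural crest, rose from 0.106, 0.0663 and 0 CPM to 6.62, 6.26 and 5.28 CPM. Olig3 and Lmx1a reached 6.87 ± 0.653 and 9.74 ± 0.269 CPM. Of 7 intermediate factors 4 rose and 3 fell; Dbx1 had no count in ESC and was at least 64.2-fold higher, at 2.06, 2.98 and 2.26 CPM. Among 6 ventral and floor plate factors 4 rose. Shh, the floor plate signal, had no count in ESC and 6.43, 7.64 and 8.38 CPM in NPC, which is at least 197-fold higher. Foxa2 rose from 1.49, 0.995 and 1.29 CPM to 9.62, 10.7 and 8.57 CPM, and is shared with endoderm. Olig2 and Nkx6-1, of motor neuron progenitors, were near 1 CPM, with 0.624 ± 0.160 and 1.12 ± 0.190 CPM. Nkx2-2 did not pass the filter on low counts, with 5 counts over the NPC libraries. Ntn1, a guidance cue of the floor plate, fell from 51.8, 53.4 and 49.6 CPM to 16.2, 16.7 and 16.3 CPM.

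Most neurogenic transcription factors rose from under 1 CPM. Of 17, 13 rose and 2 fell at least 2-fold, with a median change of 4.22 (4.22 with genes at 0 counts in ESC at their bounds). Neurog2, a proneural factor that commits progenitors to neurons, had no count in ESC and 3.99, 4.74 and 4.19 CPM in NPC, and was at least 113-fold higher. Nhlh2 and Nhlh1, of newly born neurons, had 0 and 2 counts in ESC and reached 14.5 ± 0.508 and 5.51 ± 0.288 CPM. Myt1 rose from 0, 0.0995 and 0.340 CPM to 14.5, 13.2 and 14.9 CPM. The exceptions were Neurod1 (−1.83, SE 0.13) and Neurog3 (−4.23, SE 0.57), which fell. Of 19 neuron subtype factors tested, 12 rose and 2 fell at least 2-fold (1 fell without NPC WT replicate 1 and 3 without NPC WT replicate 2). Among them, Isl1 rose from 0.532, 0.199 and 0.408 CPM to 9.21, 8.68 and 8.07 CPM, and Lhx1, which is also a kidney and streak gene, from 1.97, 1.43 and 2.31 CPM to 25.7, 26.8 and 26.7 CPM. Gata2 and Gata3, which the hindbrain shares with several other tissues, rose by 6.44 (SE 0.06) and 6.65 (SE 0.18).

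Genes of neuronal structure did not move one way. Of 19 members 7 rose and 2 fell at least 2-fold, and the median change was 0.54. Dcx, the microtubule protein doublecortin of migrating neurons, had 0.213, 0 and 0 CPM in ESC and 84.8, 76.98 and 82.5 CPM in NPC. Syt1 rose from 0.644 to 11.1 CPM and Nefm from 3.61 to 40.8 CPM. Tubb3, a neuronal tubulin gene, was present in ESC and rose by 0.22 (SE 0.06), from 38.9, 33.8 and 37.1 CPM to 40.01, 43.9 and 43.5 CPM. Stmn2 fell from 359, 285 and 336 CPM to 25.7, 25.7 and 25.6 CPM, and Elavl3 and Elavl2 fell by 0.93 and 1.68 on the log2 scale. The structural members thus moved in both directions, unlike most of the neurogenic factors.

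Axon guidance genes, by contrast, rose almost as a block. Of 28 members 25 rose and 2 fell at least 2-fold, with a median change of 2.97. Among receptors, Epha3 rose from 0.213, 0.199 and 0.272 CPM to 109, 109.9 and 105 CPM. Dcc, the netrin receptor, rose from 0.213, 0.0663 and 0.0680 CPM to 11.6, 13.95 and 14.7 CPM, and Unc5c by 6.10 (SE 0.09). Robo3, which commissural axons need to cross the midline, rose from 0.733 to 38.4 CPM. Among ligands, Sema3c rose from 4.74, 5.87 and 5.64 CPM to 275, 272 and 268 CPM and Efnb2 from 24.5 to 288 CPM. The 2 that fell were Ntn1 and Epha4 (−1.66, SE 0.05). Many of these genes are known from vessels, kidney and mesenchyme as well as from axons.

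Glial genes did not rise as a group. Of 10 tested, 2 rose and 5 fell at least 2-fold, and 3 fell without ESC WT replicate 3. Those that rose were Pdgfra (2.52, SE 0.05), which mesenchyme also expresses, and Mbp (1.82, SE 0.09), whose locus also gives non-myelin transcripts. Gfap was at 0.199 ± 0.0369 CPM and Sox10 at 0.0397 ± 0.0346 CPM in NPC, against 0.629 ± 0.108 and 1.33 ± 0.0467 CPM in ESC (SD, n = 3). Of 12 neural crest genes 7 rose and 3 fell. Tfap2b rose from 0.106, 0.0663 and 0.0680 CPM to 12.03, 13.7 and 12.4 CPM and Twist1 from 3.62, 3.72 and 2.99 CPM to 24.5, 24.8 and 29.1 CPM. Snai2 and Ets1 rose by 1.81 (SE 0.08) and 1.79 (SE 0.07). Sox10, the defining factor of migrating crest, fell to a total of 4 counts in NPC.

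Markers of other tissues moved together with the neural genes, and their part in the neural changes was not tested. Of 17 mesenchymal and mesodermal factors tested, 12 rose and 2 fell at least 2-fold. Tcf21, a factor of lung, kidney and heart mesenchyme, had no count in ESC and 23.2, 22.6 and 23.04 CPM in NPC, and was at least 599-fold higher. Hand2 rose from 0.213, 0 and 0.408 CPM to 16.8, 18.9 and 18.3 CPM, Foxf1 from 0.218 to 10.6 CPM and Foxc2 from 0.557 to 16.2 CPM. Prrx1, of limb and facial mesenchyme, fell by 0.80 (SE 0.09). Of 10 primitive streak and early mesoderm genes tested, 3 rose and 4 fell at least 2-fold. T, Eomes and Fgf8 fell by 5.37, 5.45 and 6.05, with T at 0, 0.213 and 0.0559 CPM in NPC, and Mesp1 and Msgn1 did not pass the filter. Of those that rose, Lhx1 was described above, and Evx1 and Nkx1-2 reached 0.473 ± 0.0896 and 0.416 ± 0.130 CPM (SD, n = 3). The summed level of the 18 mesenchymal factors was 57.1 to 61.1 CPM in ESC libraries and 228 to 236 CPM in NPC libraries.

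Of 14 endoderm genes tested, 11 rose and 1 fell. Gata6, which retinoic acid is known to induce in ESC and which endoderm, heart and mesenchyme share, rose from 3.03, 4.11 and 2.75 CPM to 131, 127 and 125 CPM. Gata4 rose from 9.16, 9.49 and 8.74 CPM to 63.4, 62.5 and 62.1 CPM. The more restricted endoderm genes Sox17, Foxa1, Afp and Ttr were among those that rose at least 2-fold. Sox17 reached 6.55, 5.67 and 6.09 CPM and Foxa1 11.1, 12.7 and 10.6 CPM in NPC. The yolk sac and liver products Afp and Ttr reached only 0.851 ± 0.155 and 2.20 ± 0.0940 CPM. Hnf4a fell by 0.86, and Amn, of absorptive visceral endoderm, fell from 2.18 to 0.193 CPM. Of 8 trophoblast genes tested 5 rose, and among them were the keratins that trophoblast shares with other simple epithelia, with Krt7 going from 6.39 to 53.1 CPM, Krt8 from 23.1 to 142 CPM and Krt18 from 37.6 to 249 CPM. Tpbpa and Prl3d1, which define mature trophoblast, had 2 and 0 counts in NPC. Of 12 surface ectoderm genes 8 rose and 3 fell at least 2-fold. Krt15, Trp63 and Krt14 reached 5.26 ± 0.419, 2.58 ± 0.411 and 4.62 ± 0.828 CPM, while Grhl3 and Grhl2 fell by 3.95 and 1.73. The summed level of this list was lower in NPC, at 50.5 to 54.6 CPM, against 95.1 to 102 CPM in ESC libraries. Endothelial and blood genes mostly fell, with Pecam1, which ESC are known to express, going from 111 to 1.28 CPM. Kdr, the VEGF receptor of endothelium and early mesoderm, rose from 0.745, 0.796 and 0.612 CPM to 60.3, 58.3 and 60.00 CPM. Ptprc, of leukocytes, had 2 counts in ESC and none in NPC. Heart and muscle genes stayed low, and of 8 tested 2 rose and 3 fell.

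Several of the genes that rose most belong to the urogenital ridge, which gives rise to kidney and gonad, and to the mesothelium, the epithelium that lines the body cavity. A list of 19 such genes was therefore written after their values had been seen, so it is given as a description with no test, and 7 of its members also stand on lists above. Of the 18 tested, 15 rose and 1 fell at least 2-fold. Wt1, the defining factor of this epithelium and of kidney progenitors, had 1.28, 1.39 and 1.39 CPM in ESC and 428, 426 and 440.5 CPM in NPC. Bnc1, the basonuclin gene of mesothelium and of keratinocytes, had 0.106, 0.133 and 0.0680 CPM in ESC and 234, 241 and 235 CPM in NPC, a change of 11.12 (SE 0.12). Upk3b, a uroplakin of mesothelium, rose from 0.852, 0.763 and 0.850 CPM to 121, 134 and 128 CPM. Wnt4, which kidney and gonad need, rose from 0.958, 1.03 and 1.43 CPM to 251, 250.3 and 242 CPM. Upk1b had no count in ESC and 11.2, 13.1 and 11.1 CPM in NPC. Msln, the mesothelial surface protein, was not called (0.15, SE 0.26), Lhx9 fell to 0.317, 0.346 and 0.838 CPM, and Nr5a1, the gonadal determinant, did not pass the filter. Without ESC WT replicate 2 the change of Lhx9 went from −1.20 to −0.65 and was not called. Pax2 and Pax8, which kidney and neural tube share, rose by 6.20 (SE 0.31) and 2.59 (SE 0.19).

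**Figure D5:**
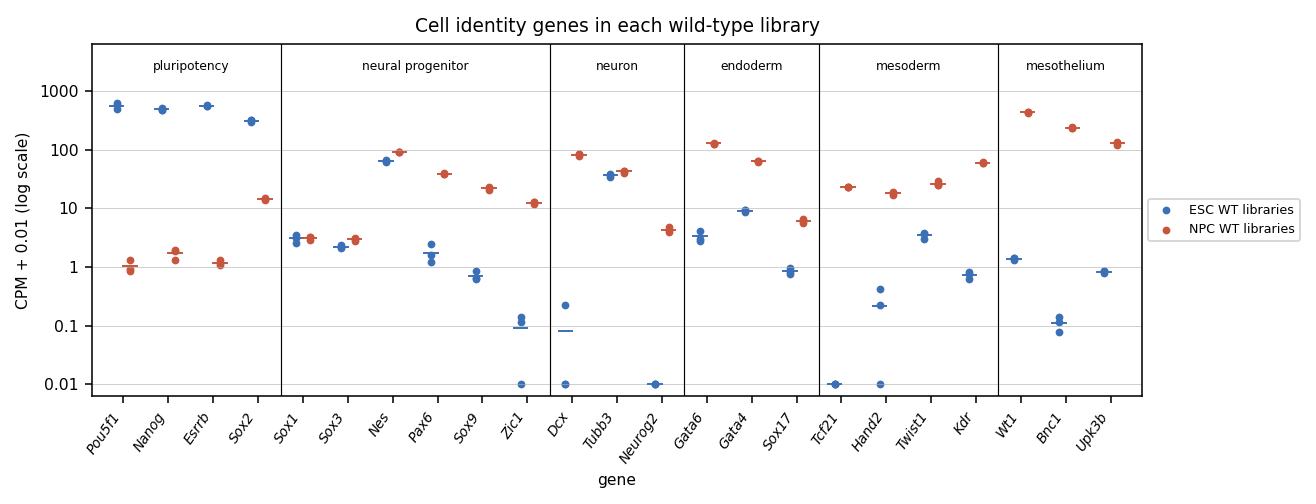
CPM + 0.01 (log scale) of 23 cell identity genes in each ESC WT and NPC WT library. Points are libraries and short lines group means. The pluripotency genes drop in all NPC libraries, Sox1 overlaps between the groups, and Pax6, Dcx, Gata6, Tcf21 and Wt1 rise in all 3 NPC libraries.

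Collagens and other matrix genes of fibroblasts were split. Of 14, 5 rose and 3 fell at least 2-fold. Col3a1 and Sparc rose from 54.9 to 295 CPM and from 265 to 832 CPM, and Dcn, or decorin, reached 10.5, 9.48 and 10.4 CPM from 0.745, 0.597 and 0.680 CPM. Col1a1 and Col1a2 fell by 0.32 and 0.59. Fn1, or fibronectin, fell from 2701, 3182 and 2668 CPM to 375, 379 and 371 CPM, a change of −2.93 (SE 0.05). With offsets for GC content and length 5 of these genes fell at least 2-fold instead of 3.

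Epithelial adhesion genes fell and mesenchymal ones rose. Of 16 epithelial adhesion and splicing genes 10 fell at least 2-fold. Cdh1, the epithelial cadherin, fell from 595, 595 and 587 CPM to 83.8, 79.7 and 73.8 CPM, and Epcam from 239.9 to 62.98 CPM. Esrp1, which directs epithelial splicing, fell by 2.48 (SE 0.06). Dsp, or desmoplakin, was the only member to rise at least 2-fold (1.03, SE 0.05), and it no longer did so without ESC WT replicate 1, with upper quartile scaling, or with offsets for GC content and length. Of 10 genes of the cadherin switch and mesenchymal transition, 8 rose and none fell. Cdh2, the neural and mesenchymal cadherin, rose from 9.69, 8.19 and 8.50 CPM to 176, 167 and 171 CPM, and Cdh6 from 0.745, 0.332 and 0.612 CPM to 101, 95.8 and 99.7 CPM. Cdh11 rose by 3.42 (SE 0.07), and the repressor genes Zeb1, Zeb2, Snai1 and Snai2 by 2.51, 2.65, 1.90 and 1.81.

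The signalling pathways were taken by role, since ligands, receptors and targets did not move alike. In the FGF pathway ligands of ESC fell. Fgf4 was described above, and Fgf17 fell from 16.9, 16.3 and 17.1 CPM to 0.0633, 0.186 and 0.251 CPM. Fgf9 rose from 0.106, 0.0332 and 0.0680 CPM to 7.12, 6.98 and 6.98 CPM. Of the receptors, Fgfr2 and Fgfr3 rose by 2.06 (SE 0.05) and 2.38 (SE 0.09), while Fgfr1 fell by 0.69 (SE 0.04). The feedback and target genes Etv5, Etv4 and Spry4 fell by 4.43, 2.92 and 4.26, but Dusp6 rose by 0.67 (SE 0.05). In all, 4 of 22 FGF members rose and 8 fell at least 2-fold.

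The ligand Nodal and its Lefty inhibitors fell, while the Id genes, targets of BMP, and several receptors rose. Nodal, Lefty1 and Lefty2 fell from 53.6 ± 5.14, 72.2 ± 4.49 and 54.1 ± 2.62 CPM to 0.706 ± 0.339, 0.861 ± 0.262 and 0.289 ± 0.109 CPM (SD, n = 3). Gdf3, a related ligand of ESC, fell to a total of 4 counts in NPC. Of the targets, Id1, Id2 and Id3 rose from 8.01 to 70.5 CPM, from 14.3 to 158 CPM and from 7.92 to 195 CPM. Bmp7 rose from 23.9 to 95.6 CPM, Bmpr1b from 2.40, 1.99 and 1.77 CPM to 48.7, 46.1 and 44.8 CPM, and Smad6, an inhibitor that BMP induces, from 5.09 to 37.99 CPM. Bmp4 itself changed by −0.20 (SE 0.07), a call lost with total counts, with no filter and once GC content and length were offset, at −0.12, −0.10 and −0.11. Of TGF-beta ligands, Tgfb2 and Tgfb3 rose by 3.19 (SE 0.09) and 4.20 (SE 0.07), and Tgfb1 fell by 1.82 (SE 0.14). Over the 29 members of both branches, 17 rose and 8 fell at least 2-fold.

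Of 31 WNT genes 18 rose and 3 fell at least 2-fold, and 7 were called lower in all. Among ligands, Wnt5a and Wnt5b rose by 2.67 (SE 0.10) and 3.46 (SE 0.23) besides Wnt4 and Wnt1. Among receptors, Fzd1, Fzd2 and Fzd3 rose by 3.02, 3.30 and 2.06, and Fzd5 fell by 3.33. The target genes Axin2, Nkd1, Sp5 and Lgr5 all rose, with Axin2 going from 13.4, 12.8 and 14.8 CPM to 87.9, 91.8 and 89.5 CPM and Lgr5 from 0.213, 0 and 0.0680 CPM to 12.9, 13.05 and 12.6 CPM. The inhibitor Sfrp1 rose from 79.9 ± 4.25 to 690.2 ± 2.35 CPM. Of 15 hedgehog genes 10 rose and 1 fell at least 2-fold, and 5 were called lower in all. The rises were in ligands (Shh, Ihh), in co-receptors (Gas1, from 3.41, 3.52 and 4.21 CPM to 280.4, 278 and 281 CPM; Boc, by 2.65) and in Smo (1.95, SE 0.04). The target genes Gli1 and Ptch1, which report pathway activity, did not rise. Gli1 fell by 0.12 (SE 0.05), with overlapping groups at 53.2, 59.01 and 55.3 CPM in ESC and 49.98, 53.7 and 50.98 CPM in NPC, and Ptch1 fell by 0.20 (SE 0.04). The call of Gli1 was lost in 8 of the 16 alternatives, at −0.11 to −0.02. Hhip, a target and inhibitor, rose by 5.99 (SE 0.14). In the Notch pathway 5 of 18 rose and 5 fell. The ligand genes Dll1, Jag1 and Jag2 fell by 2.90, 2.31 and 1.90. Notch2 rose from 70.7 to 201 CPM and Notch1 fell by 0.53 (SE 0.05). Of the targets, Hes1 was not called (−0.03 (SE 0.06); called higher, at 0.27, once GC content and length were offset), while Heyl and Hey1 rose by 4.19 and 1.64.

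Most members of the metabolic and cell cycle lists changed by less than 2-fold. Of 22 glycolysis and hypoxia genes none rose at least 2-fold and 6 fell, and 18 of 22 were called lower. Slc2a3, the high-affinity glucose transporter, fell from 1957, 1959.6 and 1908 CPM to 359, 351 and 339 CPM, and Pfkp from 1085, 1173 and 1066 CPM to 84.6, 85.4 and 78.96 CPM. Gapdh and Ldha fell by 0.65 (SE 0.05) and 0.72 (SE 0.04). Of 18 cholesterol synthesis genes none changed at least 2-fold, with a range of −0.88 to 0.82. Of 25 DNA replication genes, 8 fell and none rose at least 2-fold. The helicase genes Mcm2 to Mcm7 all fell, by 0.81 (Mcm7) to 1.31 (Mcm5), and Orc1 by 2.12 (SE 0.05). Of 20 mitosis genes 17 were called lower, but only Bub1 fell at least 2-fold (−1.10, SE 0.03). The median of that list was −0.45. Mki67, which marks cycling cells, had 872, 988 and 816 CPM in ESC and 954, 923 and 920.1 CPM in NPC and was not called. Mki67 was called lower with offsets for GC content and length, at −0.63, and called higher with total counts, with no filter and without ESC WT replicate 2, at 0.15, 0.17 and 0.15. In the G1 machinery, Ccne1 and E2f1 fell by 2.09 (SE 0.04) and 1.35 (SE 0.05). Ccnd2 rose from 36.4, 47.04 and 43.5 CPM to 265, 275 and 272 CPM, Cdkn1c, an imprinted inhibitor of cyclin-dependent kinases, from 7.23 to 89.3 CPM, and Cdkn2a and Cdkn2c by 1.44 and 1.85. Ccnd1 and Cdkn1a fell by 0.33 and 0.20, and the call of Cdkn1a was lost with no filter, at −0.09.

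Chromatin regulators changed in both directions. In DNA methylation, Dnmt3l, the cofactor of de novo methylation, fell from 224, 207 and 226 CPM to 0.950, 0.852 and 1.01 CPM. Tet1 fell from 765 ± 82.3 to 97.04 ± 1.86 CPM, and Tet3 rose from 17.5 ± 1.03 to 199 ± 3.76 CPM. Dnmt3a rose by 1.16 (SE 0.03), and Dnmt1 fell by 0.50 (SE 0.03). Of 20 Polycomb genes 5 rose and 10 fell at least 2-fold. The PRC2 core genes Suz12, Eed and Ezh2 fell by 1.18 (SE 0.04), 1.26 (SE 0.04) and 0.55 (SE 0.03). Among the chromobox genes of PRC1, Cbx7, the main form of ESC, fell from 347, 360.5 and 331 CPM to 158, 169 and 164 CPM, while Cbx2 and Cbx8 rose by 1.88 (SE 0.04) and 3.63 (SE 0.16). Phc1 fell and Phc2 rose, by 2.81 and 2.33. Without the filter on low counts 6 Polycomb genes fell at least 2-fold instead of 10, and 4 of the 10 lay close to that threshold, as Mtf2, Cbx7, Pcgf6 and Jarid2 had changes of −1.10, −1.08, −1.04 and −1.02.

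Among subunits of the BAF remodelling complex, Smarca2, Smarcc2 and Dpf3, which differentiated cells use, rose by 3.70 (SE 0.07), 2.06 (SE 0.04) and 5.16 (SE 0.18). Actl6a, of stem cells and progenitors, fell by 1.19 (SE 0.04), and its neuronal counterpart Actl6b reached 1.20, 0.985 and 1.48 CPM. Smarca4, the ATPase of stem cell BAF, rose by 0.23 (SE 0.04), but fell by 0.29 once GC content and length were offset. Of the splicing regulators 6 of 12 rose, with Ptbp2 going from 77.6 to 204 CPM and Srrm4, of neuronal microexons, from 1.63 to 11.3 CPM. Ptbp1, which represses neuronal exons, fell by 0.26 (SE 0.03). The enzymes that the series edits in other lines differed by less than 2-fold between the WT groups: Kmt2b changed by −0.22 (SE 0.05), Kmt2c changed by −0.14 (SE 0.05) and Kmt2d by 0.38 (SE 0.07), the last 2 with overlapping groups. Once GC content and length were offset, Kmt2d changed by −0.29, and without ESC WT replicate 2 the change of Kmt2c was −0.03 and not called, as in 5 other alternatives. Setd1b was the 1 of 11 H3K4 enzymes to rise at least 2-fold, from 16.1, 19.3 and 17.5 CPM to 76.2, 81.5 and 77.4 CPM.

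Imprinted genes rose in most cases, and growth-timing genes went both ways. Lin28a, which keeps the let-7 microRNA immature, fell from 360.00, 329 and 355 CPM to 34.3, 32.6 and 37.7 CPM, whereas Lin28b changed by −0.22 (SE 0.06), or −0.12 and not called with no filter. Hmga2, a chromatin protein of fetal growth, rose from 23.9, 25.7 and 22.9 CPM to 680.2, 666 and 672 CPM. Of 23 imprinted genes 15 rose and 1 fell at least 2-fold. Igf2, the fetal growth factor, rose from 24.6, 24.6 and 25.8 CPM to 2897, 2910.2 and 2903 CPM, and H19, its neighbour on the same domain, from 154, 129 and 143 CPM to 2727, 2634 and 2655 CPM. Peg3 rose from 244, 265 and 235 CPM to 4759, 4573 and 4585 CPM, and its neighbours Zim1 and Usp29 by 6.48 (SE 0.07) and 5.39 (SE 0.07). Dlk1, Plagl1 and Mest rose by 6.73 (SE 0.09), 5.65 (SE 0.05) and 3.89 (SE 0.04), while Meg3 and Rian, in the domain of Dlk1, rose by 0.92 (SE 0.04) and 0.70 (SE 0.03). Snrpn was the member that fell at least 2-fold (−1.27, SE 0.05). The 23 genes summed to 2900 CPM in ESC and 19050 CPM in NPC (means of 3 libraries). Usp29 and Airn overlap other genes, and the reads of both are uncertain for that reason. Interferon and antigen presentation genes fell in 5 of 15 cases and none rose at least 2-fold, with Ifitm1 going from 183 to 18.1 CPM and Bst2 from 68.6 to 8.16 CPM.

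The genes with the widest changes, by the rule of at least 5 CPM in the higher group and no overlap, included members of these lists. Besides Tcf21, Nhlh2, Upk1b, Bnc1, Shh, Wnt1 and Hoxc5, the 15 highest held Sst, which encodes the neuropeptide somatostatin (0 counts in ESC, 12.1, 12.4 and 11.95 CPM in NPC, at least 318-fold higher). They also held Adh1, an alcohol dehydrogenase that can oxidise retinol (at least 268-fold higher), the neuronal adhesion genes Tenm2 (at least 289-fold higher) and Lsamp (at least 187-fold higher), and Zfp804a, Mir99ahg, Nwd2 and Emx2os. Emx2os lies antisense to Emx2, so its reads are uncertain. The 15 lowest held the pluripotency and ESC genes Dppa3, Fgf4, Gdf3, Utf1, Otx2 and Tcl1, the last a coactivator of the kinase AKT, going from 79.1 to 0.0364 CPM. Trh, the gene for thyrotropin-releasing hormone, which ESC are known to transcribe, fell from 275, 213 and 253 CPM to 0.253, 0.426 and 0.279 CPM. Ly6g6e was at least 781-fold lower. The rest were AC113059.2, Gstm3, Tarm1, Foxi3, Chrna9, Trim40 and Lrrc31, whose roles in ESC are not described here.

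The direction of these changes was set beside the same step in the other lines of this set, whose libraries are separate from the WT ones. Of the 4616 genes that rose at least 2-fold in WT, 97.4% were higher in NPC than in ESC in the line labelled MLL3/4 dCD, and 93.7% in the line labelled MLL2 dTAG. Of the 4345 genes that fell at least 2-fold in WT, 95.8% and 92.2% were lower in NPC in these lines. Among all genes tested 49.3% and 49.9% were higher. These shares compare directions and not sizes, and differences between lines were not tested here.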

How the data were processed

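The authors deposited whole-number read counts per gene, named by symbol, and HTSeq is listed in the submitters' processing notes. The sources used here name no aligner, annotation or strand setting. Columns were matched to samples by name, and 18 columns of per-sample values that matched no sample alone were not used. Genes were kept with filterByExpr by group and scaled with TMM. edgeR 4.0.16 (R 4.3.3) fitted the quasi-likelihood model to 18 libraries of 6 groups, with Benjamini-Hochberg adjustment over all genes tested, after a check on simulated counts. Nothing in the labels states that replicate numbers pair the samples, so no block was used. Named genes were the 15 highest and 15 lowest by fold change with at least 5 CPM and no overlap, the largest, opposing and defining members of 50 lists, and Kmt2b, Kmt2c and Kmt2d. Some list members are not reported here by name. Members and lists were chosen with earlier results of these data known. A fold against a group with no counts is a bound from 3 counts over the group, and intervals at 95% are exact binomial ones. Both cover counting error only and take counts as independent. In the WT libraries 61.8% to 66.5% of counts from 1 to 10 were even, so independence may not hold. Bounds may then be too high and intervals too narrow. Alternatives were other scalings, DESeq2 1.42.0, other filters, the WT libraries alone, a replicate block, halved counts (even low counts were more frequent than odd), offsets for GC content and length, and each replicate left out.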

Additional observations from a re-analysis of the deposited data

How the results depend on the processing

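The counts of genes that rose or fell at least 2-fold, 4616 and 4345, ranged over 3756 to 5379 and 3376 to 4691 under all alternatives run. Deviations from the group means correlated with r of −0.00369, 0.00857 and 0.0288 between ESC and NPC replicates of the same number. Between those of unlike number r was −0.0296 to 0.0212. These values cannot decide whether a number marks a shared culture. With the replicate block 4597 genes rose and 4303 fell, and no list count moved by over 1.5 times. Upper quartile scaling shifted the median of all genes to −0.12, from −0.04. The cause of the moves below was not tested.

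With the stricter filter of 1 CPM in 3 libraries, 3 glial and 3 forebrain genes fell, 1 streak gene rose and 0 hedgehog genes fell. In the fit of the 6 WT libraries alone 3 forebrain genes, 2 Hox genes of groups 6 to 13 and 0 hedgehog genes fell, and with halved counts 3 forebrain genes fell. With offsets for GC content and length, 5 matrix, 2 endoderm, 6 LIF, 2 hedgehog, 1 cholesterol, 2 mitosis, 1 splicing and 1 H3K4 gene fell, 0 epithelial genes rose and 1 interferon gene rose. Upper quartile scaling gave 0 epithelial genes up and 1 splicing gene down. Without the filter 0 mitosis and 6 Polycomb genes fell. Leaving out 1 replicate gave 1 to 3 neuron subtype genes down (lowest without NPC WT replicate 1, highest without NPC WT replicate 2), 3 to 5 glial genes down (lowest without ESC WT replicate 3), 0 to 1 epithelial genes up (lowest without ESC WT replicate 1) and 0 to 1 splicing genes down (highest without NPC WT replicate 3).

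In the MLL3/4 dCD line, the share of risen genes that were higher was 98.3% with the stricter filter and 98.1% with halved counts, and that of fallen genes that were lower was 94.2% with no filter and 96.6% with the stricter one. In the MLL2 dTAG line these shares were 92.6% and 94.4% for risen genes, with no filter and the stricter one, and 90.8%, 93.8% and 93.3% for fallen genes, with no filter, the stricter one and halved counts. The DESeq2 test and the WT fit gave no such shares.

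Small log2 changes turned sign. Sox1 was called lower with the offsets, at −0.37, but was 0.014 with DESeq2 size factors, 0.015 with the DESeq2 test, 0.080 with total counts, 0.095 with no filter and 0.037 in the WT fit. Hes1 was 0.055 with total counts, 0.073 with no filter, 0.0035 in the WT fit and 0.27 with the offsets, where it was called. Mki67 and Vim were −0.019 and −0.0062 with upper quartile scaling, and −0.63 and −0.017 with the offsets. With the offsets Kmt2d was −0.29, Smarca4 −0.29 and Sox3 −0.20. With 1 replicate left out, En1 ranged from −0.94 to 0.21, Hes1 from −0.098 to 0.013 and Sox1 from −0.088 to 0.10.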

Other observations

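The largest gains and losses in CPM, ranked after the values were seen, fell on abundant genes. The 12 largest gains held 5 imprinted genes (Peg3, Igf2, H19, Peg10 and Mest), along with Igfbp5, which binds insulin-like growth factors, and Gpc3, a glypican. Igfbp5 rose from 3.16 to 1588 CPM. Scd2, a fatty acid desaturase, rose from 913 to 2423 CPM, and Podxl, a sialomucin of podocytes and epithelia, from 143 to 1359 CPM. Col4a1, of basement membranes, rose from 196 to 1040.5 CPM, and Myrf, a factor of oligodendrocytes and mesothelium, from 116 to 947 CPM. The 12 largest losses held Fn1, the chaperones Hsp90aa1 and Hsp90ab1 (from 1903 to 529.9 CPM and from 3908 to 2912 CPM), and the glycolysis genes Slc2a3, Pkm, Pfkp and Aldoa. Ncl, or nucleolin, fell from 2159 to 1012 CPM and Eef2, a translation factor, from 3526 to 2416 CPM.

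By gene class, 7.05% of 1049 processed pseudogenes tested rose at least 2-fold and 26.2% fell, against 23.0% and 19.4% of 15570 protein-coding genes. Among 683 lincRNA genes the shares were 29.1% and 31.3%. Reads of a processed pseudogene can come from its parent gene, and their part in these shares was not tested.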
